A study of Mus musculus with 6 samples.

Results

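The nuclear-encoded subunits of oxidative phosphorylation were picked by a rule on gene symbols that uses no measured value, and the rule was set with earlier results of these data known. It took symbols that start with Nduf and one of the letters a, b, c, s or v before a digit, the Sdha, Sdhb, Sdhc and Sdhd genes, and symbols that start with Uqcr, with Atp5 or with Cox and a digit from 4 to 8, and it left out symbols with -ps or -rs, which mark pseudogenes and related sequences. The rule found 84 of the 47729 genes in the table, with 343 of the 115220 transcripts. By the prefix of the symbol, 37 genes were placed in complex I, 4 in complex II, 8 in complex III, 18 in complex IV and 17 in complex V.

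Oxidative phosphorylation passes electrons from NADH and succinate along complexes I to IV to oxygen, and complex V uses the proton gradient built by complexes I, III and IV to make ATP. Complexes I, III, IV and V join subunits encoded in the mitochondrial genome to nuclear-encoded subunits, and complex II is encoded in the nucleus alone. The nuclear-encoded subunits are translated on cytosolic ribosomes, which is where RiboTag catches their mRNA, and are then imported into mitochondria. Neurons draw most of their ATP from this pathway to keep ion gradients and to run synapses.

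Translatomes were compared in adult male D2Cre/LSL-Flag-Cas9/RiboTag mice on a C57BL/6 background, injected at 2.5 to 3 months of age. In these mice Cre comes from a bacterial artificial chromosome transgene driven by the dopamine D2 receptor gene, and Cre switches on both Flag-tagged Cas9 and the hemagglutinin-tagged ribosomal protein Rpl22 in the same cells. Animals of the Ctrl group received AAV GFP in the medial prefrontal cortex (mPFC), and animals of the Gsk3sKO group received AAV Gsk3sgRNA/GFP, whose guide RNA directs Cas9 to Gsk3b, the gene of the kinase GSK3β. Cas9 and the tagged ribosomes were therefore present in both groups, and only the guide RNA differed. Ribosomes were pulled down by the tag 3 weeks after injection, and the bound RNA gave 3 Ctrl and 3 Gsk3sKO libraries. The sources used here do not say whether a library came from 1 mouse or from a pool, so p-values measure the spread between libraries, which may be technical.

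Expression was read as FPKM, the fragments per kilobase of transcript set against all mapped fragments of a library. FPKM was summed over the transcripts of a gene to a gene total, so levels of different genes can be compared per unit of length. The spacing of low values put about 44.2, 31.7 and 46.9 M reads behind Ctrl replicates 1 to 3, and 23.5 M was nearly as good an estimate for the third. About 40.5, 28.6 and 29.8 M reads lay behind Gsk3sKO replicates 1 to 3. The Gsk3b gene total, that of the targeted gene, was 35.6, 53.8 and 56.5 FPKM in the Ctrl and 36.9, 37.0 and 33.6 FPKM in the Gsk3sKO libraries. The groups overlapped in the total, with Ctrl replicate 1 below 2 Gsk3sKO libraries (2-sided exact permutation test, p = 0.3). The log2 fold change of the total was -0.40 and missed an unadjusted p under 0.05 in limma, and it was -0.61 and passed when Ctrl replicate 1 was left out. The main transcript ENSMUST00000023507 fell without overlap, its Gsk3sKO values being 24.8, 21.6 and 21.2 FPKM against 33.5, 34.7 and 36.2 FPKM for Ctrl (log2 fold change -0.61 ± 0.14, limma, adjusted p = 0.619). The low total of Ctrl replicate 1 went with ENSMUST00000114750, at 1.85 FPKM there and at 18.7 and 20.03 FPKM in the other Ctrl libraries. Ctrl replicate 1 was the lowest library for all 4 D2 markers, among them Drd2, the D2 receptor gene itself (1.58 FPKM against 6.02 and 14.1 in Ctrl replicates 2 and 3), and Penk (96.5 FPKM against 112 and 295). By the summed level of these markers Ctrl replicate 3 was the one farthest from the other Ctrl libraries, at 318 FPKM against 98.5 and 120.3. Of the marker lists, 3 of 6 oligodendrocyte markers (Cnp, Mag and Mog) fell at an unadjusted limma p under 0.05, beside 5.2% of all gene totals. The list had summed levels of 118 to 183 FPKM in Ctrl and 128 to 165 FPKM in Gsk3sKO, with Mog listed at 0 in Gsk3sKO replicates 2 and 3. The microglial C1qa and the excitatory Tbr1 fell as well, with list sums of 14.2 to 25.3 and 881 to 999 FPKM in Ctrl and of 12.4 to 15.4 and 840.2 to 1046 FPKM in Gsk3sKO. None of the 4 D2 markers passed the test, with list sums of 98.5 to 318 FPKM in Ctrl and 146 to 293 FPKM in Gsk3sKO, and nor did any astrocyte, endothelial or inhibitory marker. With TPM scaling the marker lists held 1 faller, of the oligodendrocytes, and 1 riser each in the excitatory, inhibitory and microglial lists. Among all gene totals 1.83% fell and 6.71% rose on that scale. The part of other cell types in the results was not tested.

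Most subunits had slightly negative fold changes as deposited and positive ones with TPM scaling, which rescales each library to a fixed summed FPKM. A gene for the membrane ring of ATP synthase was far lower in Gsk3sKO on both scales, and a gene for a membrane-arm subunit of complex I was higher on both. Of the 84 subunits, 77 had a mean of at least 1 FPKM over the libraries and were tested with limma on log2(FPKM + 1), a scale that understates changes of low genes. Log2 fold changes (Gsk3sKO minus Ctrl) are given ± the limma standard error, and adjusted p-values are limma's, with Benjamini-Hochberg adjustment over all gene totals or transcripts tested. At an unadjusted p under 0.05, 14 fell and 2 rose in Gsk3sKO, or 18.2% and 2.60% of the 77, beside 5.2% and 1.36% of all 12874 gene totals tested. After Benjamini-Hochberg adjustment over all gene totals limma called 0 of the 77, with adjusted p from 0.129 for Atp5g1 upward, while 6 gene totals of any kind were called (0.0466%). An ordinary linear model without moderation also called 0 after adjustment, and before adjustment it called 4 lower and 2 higher, beside 3.86% and 1.54% of all gene totals in that model. The median log2 fold change of the 77 was -0.18, beside -0.062 over all gene totals, and with TPM scaling the medians were 0.18 and 0.27.

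The sign of the fold change was negative for 54 subunits and positive for 23. The median of all gene totals was negative too (-0.062), so a negative sign prevailed among genes of any kind as deposited. All 3 Gsk3sKO values were below all 3 Ctrl values for 6 of the 77, namely Ndufa11, Cox7a2, Atp5d, Atp5g1, Atp5g3 and Atp5l (8.3% of all gene totals did so). They were above for 2, Ndufb5 and Cox6a2 (3.71% of all gene totals). With 3 libraries against 3 an exact permutation test cannot go below p = 0.1, the value these 8 genes reach. In bulk RNA of this kind, fewer tagged cells of a type and less RNA per cell cannot be told apart.

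**Figure D1:**
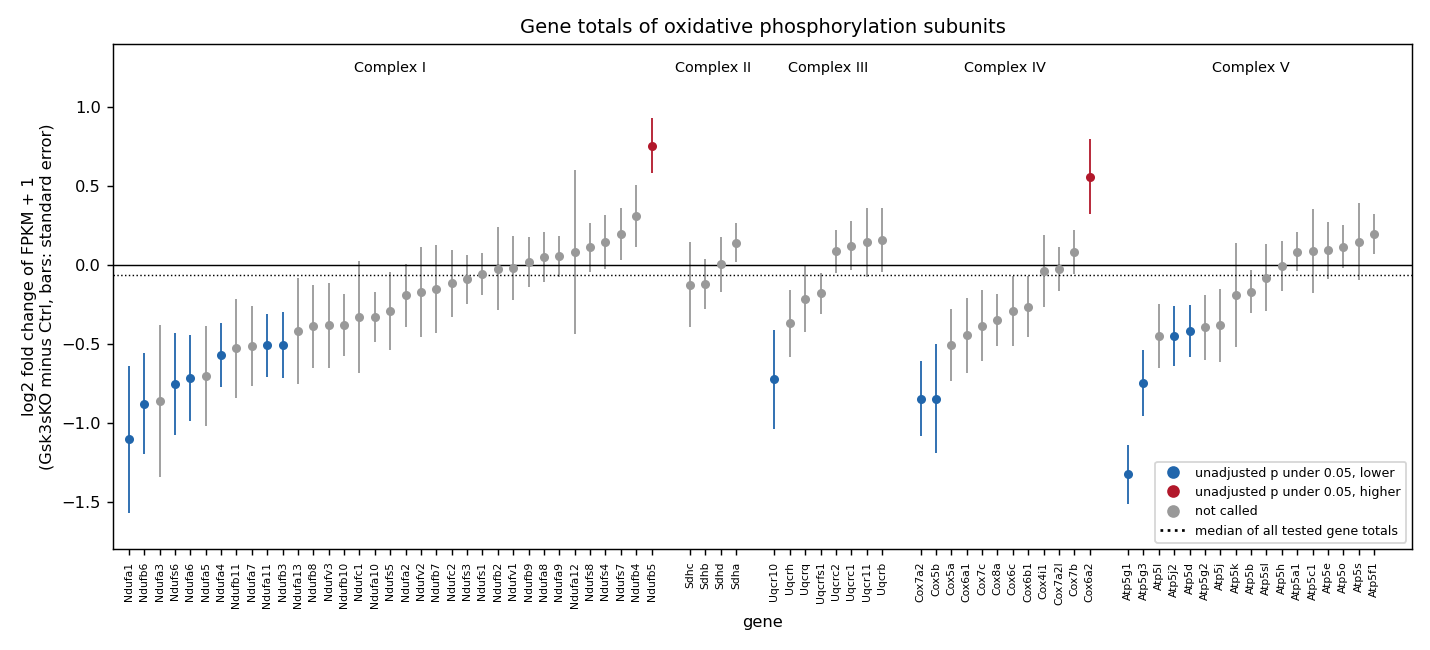
Log2 fold change (vertical axis, log2 of FPKM + 1, Gsk3sKO minus Ctrl) of 76 of the 77 tested subunits, sorted within each complex, with bars for the limma standard error and a dotted line at the median of all gene totals, -0.062. Atp5g1 lies lowest at -1.33 and Ndufb5 highest at 0.76. With TPM scaling the median of the subunits was 0.18 instead of -0.18.

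Complex I, the NADH dehydrogenase that feeds electrons into the chain, had 36 of 37 subunits tested, of which 7 fell and 1 rose. The subunit with the highest mean level was Ndufb10, a membrane-arm subunit, at 201, 243 and 162 FPKM in the Ctrl and 159, 181 and 124 FPKM in the Gsk3sKO libraries. The next was Ndufs5, also of the membrane arm, at 182, 147 and 123 FPKM in the Ctrl and 115, 89.2 and 173 FPKM in the Gsk3sKO libraries. Both groups overlapped for these genes, which did not pass the test (log2 fold change -0.38 ± 0.20 for Ndufb10 and -0.29 for Ndufs5). Of the catalytic core, the genes Ndufv1, Ndufv2, Ndufs1, Ndufs3, Ndufs7 and Ndufs8 were not called, and their fold changes lay between -0.17 for Ndufv2 and 0.19 for Ndufs7.

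The single riser of complex I was Ndufb5, an accessory subunit of the membrane arm (ENSMUSG00000027673, chr3:32736990-32751566, plus strand, GRCm38). Its gene total was 26.3, 40.9 and 30.5 FPKM in the Ctrl and 58.2, 54.0 and 52.3 FPKM in the Gsk3sKO libraries, with means of 32.6 ± 7.51 FPKM for Ctrl and 54.8 ± 3.04 FPKM for Gsk3sKO (SD, n = 3 each). All Gsk3sKO libraries lay above all Ctrl libraries, the lowest Gsk3sKO value being 52.3 and the highest Ctrl value 40.9 FPKM (log2 fold change 0.76 ± 0.18, adjusted p = 0.464). The rise stood at an unadjusted p under 0.05 in all 17 alternative settings, and leaving out 1 library at a time gave fold changes from 0.62 to 0.93. Exons of Ndufb5 overlap those of Mrpl47 on the other strand. Mrpl47 was listed at a mean of 2.37 FPKM with a log2 fold change of -0.35, and the division of reads between the overlapping genes was not tested. Ndufa11, Ndufb6, Ndufs6, Atp5d and Cox6a2 also share exon sequence with a gene on the other strand, and the strand setting used in counting is not given in the sources used here. Reads can also be shared with near-identical pseudogenes, and this was not tested.

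The 7 fallers placed in complex I by prefix were accessory subunits, apart from Ndufa4, whose protein has been found in complex IV. Ndufa1, a small X-linked subunit needed for assembly of the membrane arm, had the most negative fold change of the complex and was at 109.6, 50.9 and 26.02 FPKM in the Ctrl and 30.9, 16.4 and 27.05 FPKM in the Gsk3sKO libraries (log2 fold change -1.11 ± 0.46, adjusted p = 0.75). Ctrl replicate 1 was the high library, Ctrl replicate 3 lay below 2 Gsk3sKO libraries, and without Ctrl replicate 1 the fold change was -0.58. Ndufb6, of the membrane arm, was at 42.4, 30.6 and 19.9 FPKM in the Ctrl and 21.1, 17.3 and 10.4 FPKM in the Gsk3sKO libraries (log2 fold change -0.88 ± 0.32, adjusted p = 0.702). Its Gsk3sKO replicate 1 lay above Ctrl replicate 3, and without Ctrl replicate 1 the fold change was -0.63.

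Ndufs6, a zinc-binding subunit of the peripheral arm, was at 68.0, 49.2 and 32.8 FPKM in the Ctrl and 35.6, 17.8 and 34.3 FPKM in the Gsk3sKO libraries (log2 fold change -0.76 ± 0.32, adjusted p = 0.752). Ndufa6, a subunit of the LYR family that binds acyl carrier protein, was at 175, 124 and 94.5 FPKM in the Ctrl and 105, 57.6 and 75.1 FPKM in the Gsk3sKO libraries (log2 fold change -0.72 ± 0.27, adjusted p = 0.726). In both genes Ctrl replicate 1 was highest, Gsk3sKO replicate 2 was lowest and the groups overlapped, and without Ctrl replicate 1 the fold changes were -0.51 for Ndufs6 and -0.49 for Ndufa6. Ndufa4, which carries a complex I name although the protein has been found in complex IV, was at 104, 93.7 and 82.9 FPKM in the Ctrl and 59.1, 83.97 and 49.2 FPKM in the Gsk3sKO libraries (log2 fold change -0.57 ± 0.20, adjusted p = 0.692). Here the groups overlapped through Gsk3sKO replicate 2, which lay above Ctrl replicate 3.

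The last fallers of complex I were Ndufa11 and Ndufb3, both of the membrane arm. Ndufa11 was at 15.2, 14.5 and 11.96 FPKM in the Ctrl and 11.9, 8.33 and 8.45 FPKM in the Gsk3sKO libraries (log2 fold change -0.51 ± 0.20, adjusted p = 0.741), and the groups did not overlap, though Ctrl replicate 3 and Gsk3sKO replicate 1 were nearly level. Ndufb3 was at 37.02, 29.5 and 21.3 FPKM in the Ctrl and 20.5, 17.7 and 21.4 FPKM in the Gsk3sKO libraries (log2 fold change -0.51 ± 0.21, adjusted p = 0.75), with Gsk3sKO replicate 3 just above Ctrl replicate 3. Without Ctrl replicate 1 their fold changes were -0.44 for Ndufa11 and -0.33 for Ndufb3, and of the 7 fallers none had an unadjusted p under 0.05 in that fit. Ndufa4l2, the only untested subunit of the complex, was listed at 0 in 4 libraries and at 0.249 FPKM in Ctrl replicate 3 and 0.648 FPKM in Gsk3sKO replicate 3.

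In complex II, succinate dehydrogenase, none of the 4 subunits passed the test. Sdha, the flavin-carrying catalytic subunit, was at 151, 131 and 145 FPKM in the Ctrl and 151, 158 and 162 FPKM in the Gsk3sKO libraries. Sdhb, the iron-sulfur subunit, was at 53.04, 61.2 and 55.4 FPKM in the Ctrl and 60.1, 42.4 and 54.7 FPKM in the Gsk3sKO libraries. The groups overlapped for both, with log2 fold changes of 0.14 ± 0.12 for Sdha and -0.12 ± 0.16 for Sdhb. The membrane anchors Sdhc and Sdhd had fold changes of -0.12 and 0.0038, and that of Sdhc turned positive in 4 of the alternative settings.

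Complex III, the cytochrome bc1 complex, had all 8 subunits tested, and 1 fell. The highest level was that of Uqcrb, which lies close to the ubiquinone site, at 267, 186 and 179 FPKM in the Ctrl and 234, 189 and 280.1 FPKM in the Gsk3sKO libraries. Uqcrh, the hinge protein at cytochrome c1, followed at 154, 148 and 104 FPKM in the Ctrl and 133, 88.4 and 91.9 FPKM in the Gsk3sKO libraries. Neither passed the test (log2 fold changes 0.16 ± 0.20 and -0.37 ± 0.21), and the groups overlapped. Uqcr10, a small membrane subunit, was at 82.6, 57.8 and 31.8 FPKM in the Ctrl and 37.4, 26.8 and 32.3 FPKM in the Gsk3sKO libraries (log2 fold change -0.73 ± 0.31, adjusted p = 0.755). Its Ctrl replicate 3 lay below Gsk3sKO replicates 1 and 3, and without Ctrl replicate 1 the fold change was -0.42. The core proteins Uqcrc1 and Uqcrc2 and the Rieske iron-sulfur protein Uqcrfs1 had fold changes of 0.12, 0.08 and -0.18 and did not pass.

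In complex IV, cytochrome c oxidase, 12 of 18 subunits were tested, and 2 fell and 1 rose. Cox6c and Cox8a had the highest mean levels. Cox6c was at 508, 305 and 281 FPKM in the Ctrl and 293, 298 and 272 FPKM in the Gsk3sKO libraries. Cox8a was at 308, 292 and 272 FPKM in the Ctrl and 273, 232 and 186 FPKM in the Gsk3sKO libraries. Both overlapped between the groups and did not pass the test (log2 fold changes -0.29 ± 0.22 and -0.35 ± 0.16). Cox5b, a zinc-binding subunit on the matrix side, was at 394, 266 and 146 FPKM in the Ctrl and 186, 113 and 123 FPKM in the Gsk3sKO libraries (log2 fold change -0.85 ± 0.34, adjusted p = 0.75). Its Ctrl values spread from 146 to 394 FPKM, Gsk3sKO replicate 1 lay inside that range, and without Ctrl replicate 1 the fold change was -0.52.

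Cox7a2, the isoform of subunit 7a found in most tissues outside heart and muscle (ENSMUSG00000032330, chr9:79755361-79759878, minus strand, GRCm38), was at 62.6, 42.2 and 36.8 FPKM in the Ctrl and 28.1, 29.4 and 19.2 FPKM in the Gsk3sKO libraries, with means of 47.2 ± 13.6 FPKM for Ctrl and 25.5 ± 5.54 FPKM for Gsk3sKO (SD, n = 3 each). The groups did not overlap, the highest Gsk3sKO value being 29.4 and the lowest Ctrl value 36.8 FPKM (log2 fold change -0.85 ± 0.24, adjusted p = 0.607). The fall stood at an unadjusted p under 0.05 in 16 of 17 alternative settings, and the setting that lost it was TPM scaling (log2 fold change -0.50). In the 6 fits without 1 library the fold change lay between -1.01 and -0.63. The muscle isoform Cox7a1 was listed at 0 in all 6 libraries, so the sum of both isoforms was that of Cox7a2.

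Cox6a2, the heart and skeletal muscle isoform of subunit 6a, was the riser of the complex and also the lowest tested subunit of all, at 5.34, 3.87 and 3.22 FPKM in the Ctrl and 7.25, 5.54 and 6.72 FPKM in the Gsk3sKO libraries (log2 fold change 0.56 ± 0.24, adjusted p = 0.752). All Gsk3sKO libraries were above all Ctrl libraries, although Gsk3sKO replicate 2 exceeded Ctrl replicate 1 by little. Its share of the summed Cox6a1 and Cox6a2 level was 3.0, 2.78 and 2.36% in Ctrl and 4.47, 5.45 and 7.58% in Gsk3sKO, again without overlap. Cox6a1, the isoform of other tissues, made up the rest at 173, 135 and 133 FPKM in the Ctrl and 155, 96.0 and 81.95 FPKM in the Gsk3sKO libraries and did not pass the test (log2 fold change -0.45 ± 0.24).

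Other isoform pairs of complex IV were one-sided. Cox4i1, the common form of subunit 4, held at least 99.6% of the summed Cox4i1 and Cox4i2 level in every library and did not pass the test (log2 fold change -0.04 ± 0.23). Cox6b1 and Cox7b, with fold changes of -0.27 and 0.08, held at least 98.3% and 99.0% of their pairs. Cox7b2, a form known from testis, was listed at 0 throughout Gsk3sKO and at 1.39, 0.587 and 0.468 FPKM in the Ctrl libraries, below the mean needed for the test. Cox4i2, Cox6b2 and Cox8b were at most 1.12 FPKM in any library, Cox8c was listed at 0 throughout, and Cox7a2l, whose protein joins complexes III and IV, had a fold change of -0.03 ± 0.14.

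Complex V, ATP synthase, had all 17 genes placed in it by prefix tested, and 4 fell, Atp5g1, Atp5g3, Atp5d and Atp5j2. Atp5s and Atp5sl, which carry the prefix but are left out of the complex under current assignments, were not called. The gene with the highest level was Atp5h, for subunit d of the peripheral stalk, at 630.1, 467 and 539.8 FPKM in the Ctrl and 582, 502 and 538 FPKM in the Gsk3sKO libraries. Next came Atp5b, for the catalytic beta subunit, at 377, 388 and 394 FPKM in the Ctrl and 394, 327 and 314 FPKM in the Gsk3sKO libraries. Neither passed the test, with log2 fold changes of -0.0053 ± 0.16 and -0.17 ± 0.14, and the groups overlapped. The alpha subunit gene Atp5a1 and the peripheral stalk gene Atp5f1, the latter with the most positive fold change of the complex, had fold changes of 0.08 ± 0.12 and 0.19 ± 0.13.

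The most negative fold change of the tested subunits was that of Atp5g1, a gene for subunit c, which forms the proton-driven ring of the rotor. The 3 genes Atp5g1, Atp5g2 and Atp5g3 encode the same mature protein behind different import sequences. Atp5g1 (ENSMUSG00000006057, chr11:96068852-96075670, minus strand, GRCm38) was at 24.9, 22.3 and 27.4 FPKM in the Ctrl and 11.3, 9.20 and 7.63 FPKM in the Gsk3sKO libraries, with means of 24.8 ± 2.55 FPKM for Ctrl and 9.37 ± 1.83 FPKM for Gsk3sKO (SD, n = 3 each). The highest Gsk3sKO value, 11.3 FPKM, lay well below the lowest Ctrl value, 22.3 FPKM (log2 fold change -1.33 ± 0.19, adjusted p = 0.129). The call stood in all 17 alternative settings, with adjusted limma p from 0.0915 to 0.865 and with fold changes from -1.46 to -1.20 when 1 library was left out.

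Atp5g3 (ENSMUSG00000018770, chr2:73908447-73911326, minus strand, GRCm38), the most abundant of the 3, was at 79.2, 96.4 and 64.5 FPKM in the Ctrl and 55.5, 35.9 and 50.8 FPKM in the Gsk3sKO libraries, with means of 80.02 ± 15.97 FPKM for Ctrl and 47.4 ± 10.2 FPKM for Gsk3sKO (SD, n = 3 each) and no overlap between the groups (log2 fold change -0.75 ± 0.21, adjusted p = 0.607). It kept an unadjusted p under 0.05 in 15 of 17 alternative settings and lost it with TPM scaling (-0.39) and with the most abundant transcript of each gene (-0.89). Its fold changes lay from -0.89 to -0.56 when 1 library was left out. Atp5g2 (ENSMUSG00000062683, chr15:102662864-102672352, minus strand, GRCm38) was at 14.6, 15.6 and 13.3 FPKM in the Ctrl and 13.4, 8.19 and 11.4 FPKM in the Gsk3sKO libraries, and it did not pass the test (log2 fold change -0.39 ± 0.21), with Gsk3sKO replicate 1 just above Ctrl replicate 3. Summed over the 3 genes, subunit c was at 119, 134 and 105 FPKM in Ctrl and 80.2, 53.3 and 69.8 FPKM in Gsk3sKO, with means of 119 ± 14.6 and 67.8 ± 13.6 FPKM (SD, n = 3 each) and no overlap. Atp5g1 made up 16.6 to 26.0% of that sum in Ctrl and 10.9 to 17.3% in Gsk3sKO, and these shares overlapped.

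**Figure D2:**
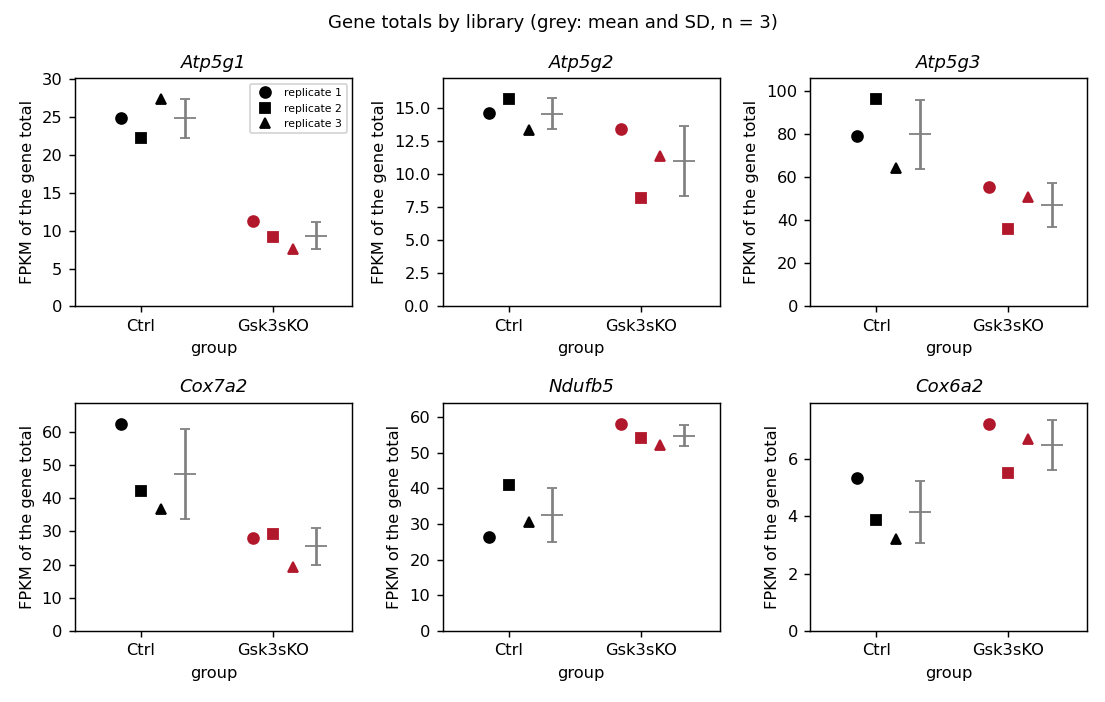
FPKM of the gene total (vertical axes, starting at 0) for 6 subunit genes in each library, Ctrl in black and Gsk3sKO in red, with the symbol giving the replicate number and the grey bar the mean and SD of 3 libraries. Atp5g1 fell from 22.3 to 27.4 FPKM in Ctrl to 7.63 to 11.3 FPKM in Gsk3sKO, and Atp5g2 is the one panel in which the groups overlap.

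The promoters of the subunit c genes are shown because these genes make the same mature protein and yet did not all pass the test (the difference between them was not tested), beside those of Cox7a2 and Ndufb5, the other genes called in nearly all settings. The windows are RefSeq sequence of GRCm38.p6, 5′ to 3′ on the strand of the gene, from 250 bases before the annotated start to 30 bases after it, which is chr11:96075602-96075881 on the minus strand for Atp5g1, chr15:102671018-102671297 on the minus strand for Atp5g2, chr2:73911297-73911576 on the minus strand for Atp5g3, chr9:79759824-79760103 on the minus strand for Cox7a2 and chr3:32736813-32737092 on the plus strand for Ndufb5. Capitals mark an exact match to CGCATGCG, the core of the site of nuclear respiratory factor 1, which was found in the Atp5g2 window alone, starting 41 bases before the start. The Atp5g2 window lies wholly inside the span of the gene given above, which on this strand begins at chr15:102672352. The other windows reach past the start of the span of their gene.
Atp5g1: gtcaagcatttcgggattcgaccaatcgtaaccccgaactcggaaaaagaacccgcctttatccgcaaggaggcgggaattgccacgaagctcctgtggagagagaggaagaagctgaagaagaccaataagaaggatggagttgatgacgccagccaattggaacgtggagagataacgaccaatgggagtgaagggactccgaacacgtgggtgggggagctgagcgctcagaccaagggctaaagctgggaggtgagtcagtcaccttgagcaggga
Atp5g2: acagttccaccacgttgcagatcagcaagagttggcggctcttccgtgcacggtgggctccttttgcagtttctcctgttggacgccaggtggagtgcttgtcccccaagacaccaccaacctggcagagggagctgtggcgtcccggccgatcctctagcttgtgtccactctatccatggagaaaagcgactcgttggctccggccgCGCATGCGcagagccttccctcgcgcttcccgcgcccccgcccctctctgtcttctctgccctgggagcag
Atp5g3: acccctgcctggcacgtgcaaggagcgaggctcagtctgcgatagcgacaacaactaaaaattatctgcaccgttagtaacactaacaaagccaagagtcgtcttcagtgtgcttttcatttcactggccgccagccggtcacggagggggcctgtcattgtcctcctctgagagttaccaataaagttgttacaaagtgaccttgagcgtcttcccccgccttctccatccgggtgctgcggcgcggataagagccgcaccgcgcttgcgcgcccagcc
Cox7a2: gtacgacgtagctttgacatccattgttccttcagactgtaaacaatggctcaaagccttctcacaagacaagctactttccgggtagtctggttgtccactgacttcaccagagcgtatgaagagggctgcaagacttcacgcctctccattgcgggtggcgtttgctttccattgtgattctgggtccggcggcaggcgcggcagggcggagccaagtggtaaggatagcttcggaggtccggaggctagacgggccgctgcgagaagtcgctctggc
Ndufb5: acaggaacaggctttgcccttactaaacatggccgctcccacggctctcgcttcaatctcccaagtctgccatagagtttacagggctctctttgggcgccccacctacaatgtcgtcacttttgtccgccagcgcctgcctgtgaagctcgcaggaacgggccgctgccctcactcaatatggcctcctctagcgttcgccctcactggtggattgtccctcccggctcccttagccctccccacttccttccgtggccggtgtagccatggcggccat

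Windows of the same kind were searched for 3 motifs known from promoters of genes for mitochondrial proteins, on both strands, over the 250 bases before and 50 bases after the start. A window was found for 69 of the 84 subunits and for 27025 genes in all. CGCATGCG (NRF1) was in 9 subunit promoters, or 13.0% beside 2.07% of all genes, CCGGAAG (the ETS family, which includes GABPA) in 16 (23.2% beside 9.93%) and AAGATGGCG (YY1) in 8 (11.6% beside 1.64%). Of the 14 fallers, all with a window, 1 had the NRF1 letters (Ndufa11), 1 the ETS letters (Ndufb6) and 2 the YY1 letters (Ndufs6 and Atp5j2), and Ndufb5 had none of the motifs. A match describes the letters of the window and no more.

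The other fallers of complex V were Atp5d and Atp5j2. Atp5d, for the delta subunit of the central stalk, was at 81.5, 86.7 and 96.3 FPKM in the Ctrl and 53.3, 77.7 and 67.8 FPKM in the Gsk3sKO libraries (log2 fold change -0.42 ± 0.16, adjusted p = 0.741), without overlap, and was the one faller beside Atp5g1, Atp5g3 and Cox7a2 that kept an unadjusted p under 0.05 without Ctrl replicate 1 (log2 fold change -0.48). Atp5j2, for the membrane subunit f, was at 48.2, 38.8 and 33.02 FPKM in the Ctrl and 33.3, 23.7 and 29.98 FPKM in the Gsk3sKO libraries (log2 fold change -0.45 ± 0.19, adjusted p = 0.75), with Gsk3sKO replicate 1 a little above Ctrl replicate 3 and a fold change of -0.31 without Ctrl replicate 1. Atp5l, for the membrane subunit g, did not overlap between the groups, at 198, 125 and 118 FPKM in the Ctrl and 113, 99.7 and 101 FPKM in the Gsk3sKO libraries, but missed the threshold (log2 fold change -0.45 ± 0.20).

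Summed over its subunits, complex I was at 3025, 2274 and 1953 FPKM in the Ctrl and 2059, 1865 and 2138 FPKM in the Gsk3sKO libraries, with means of 2417 ± 550.0 for Ctrl and 2021 ± 140.3 FPKM for Gsk3sKO (SD, n = 3 each). Complex IV was at 2015, 1523 and 1298 FPKM in the Ctrl and 1463, 1184 and 1123 FPKM in the Gsk3sKO libraries, with means of 1612 ± 367 for Ctrl and 1257 ± 181 FPKM for Gsk3sKO (SD, n = 3 each). In both complexes the groups overlapped, and Ctrl replicate 1 was the highest library by a wide margin. The ratios of the Gsk3sKO mean to the Ctrl mean were 0.836 for complex I and 0.780 for complex IV, without Ctrl replicate 1 they were 0.956 and 0.891, and with TPM scaling they were above 1.

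The sums of complex V were 2626, 2253 and 2188 FPKM in the Ctrl and 2291, 2047 and 2161 FPKM in the Gsk3sKO libraries. Those of complex III were 873, 711 and 635 FPKM in the Ctrl and 765, 639.6 and 718 FPKM in the Gsk3sKO libraries, and those of complex II were 239, 224 and 238 FPKM in the Ctrl and 250.1, 226 and 255 FPKM in the Gsk3sKO libraries. The groups overlapped in each of these complexes, with ratios of 0.920, 0.957 and 1.04, and of 0.976, 1.05 and 1.05 without Ctrl replicate 1. Over all 84 genes the sum was 7358 ± 1275 for Ctrl and 6395 ± 432 FPKM for Gsk3sKO (SD, n = 3 each), a ratio of 0.869, or 0.962 without Ctrl replicate 1. With TPM scaling the log2 ratio was positive for every complex, from 0.022 in complex IV to 0.41 in complex II. TPM scaling divides by the summed FPKM of a library, which was 414548 to 608528 in Ctrl and 385795 to 422109 in Gsk3sKO, and of which the short RNA Gm23935 alone took 12.9 to 24.9% in Ctrl and 7.80 to 13.4% in Gsk3sKO.

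**Figure D3:**
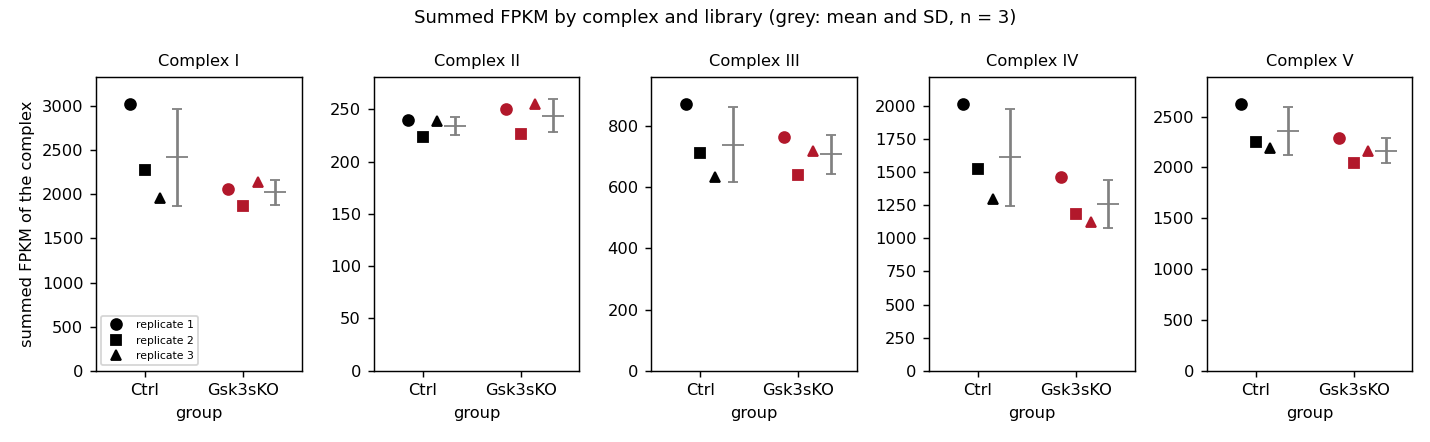
Summed FPKM of each complex (vertical axes, starting at 0, one scale per panel) in each library, Ctrl in black and Gsk3sKO in red, with grey bars for the mean and SD of 3 libraries. Ctrl replicate 1 is the highest library in complexes I, III, IV and V, and the groups overlap in all 5 panels. The ratio of means was 0.836 in complex I and 0.780 in complex IV as deposited, and above 1 in every complex with TPM scaling.

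As deposited, the median log2 fold changes of the tested subunits were -0.24 in complex I, -0.06 in complex II, -0.05 in complex III, -0.32 in complex IV and -0.17 in complex V. They moved to 0.12, 0.30, 0.32, 0.04 and 0.20 with TPM scaling, beside 0.27 over all gene totals. On both scales the medians of complexes I, IV and V lay below the median of all gene totals and those of complexes II and III at or above it. TPM scaling multiplies each library by 1 factor and moves nearly all genes alike, so this order could hardly change. Without Ctrl replicate 1 the median of complex I lay above that of all gene totals (-0.03 beside -0.09). With a curve of transcript length taken out, that of complex V did (0.02 beside 0.0020). Complex IV stayed below in both fits, at -0.16 and -0.13.

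Transcript lengths moved with these results. The tested subunits had a median transcript length of 772 bases, beside 2602 bases over all gene totals, and 50 of the 77 were at most 1000 bases long. Of these 50, 13 fell (26.0%), beside 15.1% of all 1866 gene totals of at most 1000 bases, and of the 27 longer subunits 1 fell (3.70%, the gene Atp5g1), beside 3.51% of longer gene totals. Up to 600 bases the median fold change was -0.39 for the subunits and -0.37 for all gene totals, and from 600 to 1000 bases it was -0.38 and -0.17. For longer subunits and gene totals it was -0.03 and -0.05. Ctrl replicate 1 was the highest library for 45 of the 77 subunits, among them 36 of the 50 short ones, and was the highest for 20.4% of all gene totals. Gsk3sKO replicate 2 was the lowest library for 31 of the 77, beside 20.1% of all gene totals.

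**Figure D4:**
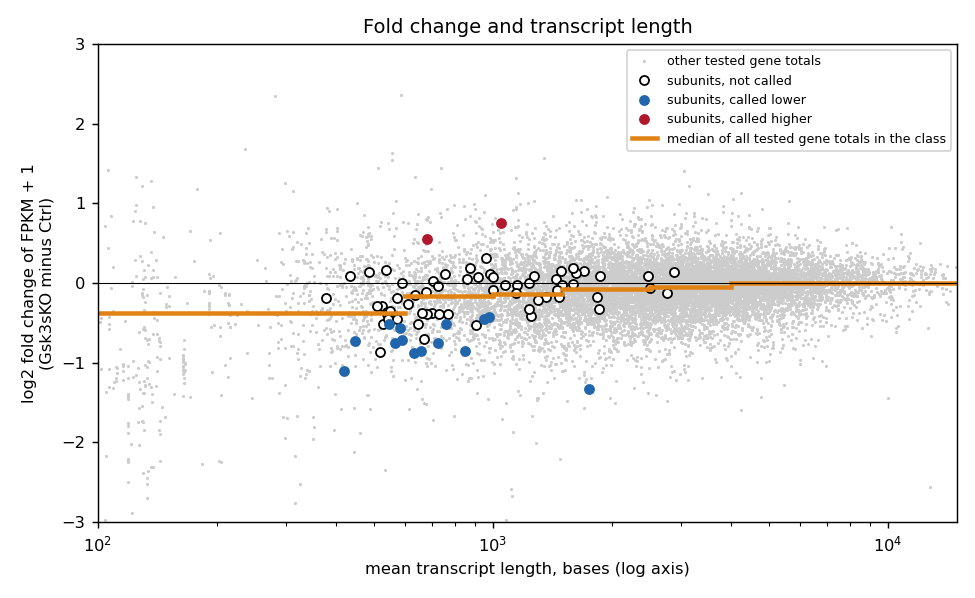
Log2 fold change (vertical axis, log2 of FPKM + 1, Gsk3sKO minus Ctrl) against mean transcript length in bases (log axis) for the tested subunits (circles) and all other gene totals (grey), with orange lines at the median of all gene totals in each length class. The 220 gene totals outside the axes are not drawn, and none of them is a subunit. The fallers crowd below 1000 bases, where the orange lines lie at -0.37 and -0.17, and Atp5g1 is the faller beyond.

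With a curve of transcript length taken out of each library, the median of the subunits was -0.07, beside 0.0020 over all gene totals, and 6 fell and 3 rose, which is beside 3.04% lower and 3.11% higher among all gene totals. The fallers in that fit were Atp5g1, Atp5g3, Cox7a2, Cox5b, Ndufa6 and Ndufb6, and the risers were Ndufb5, Cox6a2 and Ndufb4, a membrane-arm subunit of complex I with a log2 fold change of 0.31 before the curve was taken out and 0.45 after. Leaving out Ctrl replicate 1 gave 4 fallers (Atp5d, Atp5g1, Atp5g3 and Cox7a2) and 4 risers (Cox6a2, Ndufb4, Ndufb5 and Uqcr11), beside 4.19% lower and 1.07% higher among all gene totals, and the median of the subunits was then -0.03, beside -0.09 over all gene totals.

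Median ratio scaling gave 7 fallers and 2 risers, beside 4.1% lower and 2.14% higher among all gene totals, and TPM scaling gave 2 (Atp5g1 and Ndufa1) and 8, beside 1.83% and 6.71%. Single libraries moved the count of fallers in both directions. It was 4, 5 and 23 when Ctrl replicate 1, 2 or 3 was left out, beside 4.19, 3.41 and 5.41% of all gene totals. It was 16, 6 and 6 when Gsk3sKO replicate 1, 2 or 3 was left out, beside 7.25, 3.72 and 3.97%. Atp5g1, Atp5g3 and Cox7a2 fell and Ndufb5 rose in all 6 of these fits. Each of the other 12 called subunits lost its unadjusted p under 0.05 in at least 3 of the 6. None of the 16 changed direction in any of the 17 alternative settings, some of which cannot alter a fold change.

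**Figure D5:**
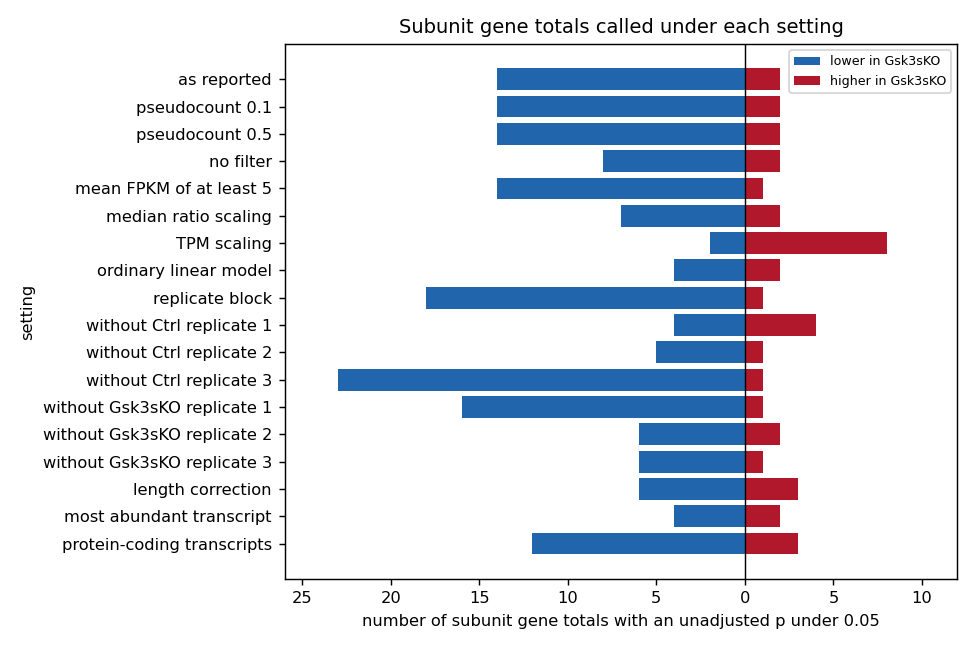
Number of subunit gene totals with an unadjusted p under 0.05 (horizontal axis) that were lower (blue, to the left) or higher (red, to the right) in Gsk3sKO under each setting. As reported 14 were lower and 2 higher, beside 5.2% and 1.36% of all gene totals. With TPM scaling 2 were lower and 8 higher, beside 1.83% and 6.71%.

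At the level of single transcripts, 165 of the 343 listed were tested, and 8 fell and 3 rose in 10 genes, which is 4.85% and 1.82% beside 3.75% and 1.81% of all 21584 transcripts. Limma called 0 after Benjamini-Hochberg adjustment, of these or of all transcripts, and 11 before it, and an ordinary linear model called 9 before adjustment, beside 5.1% of all transcripts. Transcripts annotated as protein-coding held 96.6% of the subunits' FPKM in Ctrl and 97.1% in Gsk3sKO. The division of reads between overlapping transcripts is an estimate, so one transcript of a gene can gain what another loses.

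In Uqcr11, which encodes a small membrane subunit of complex III, the protein-coding transcript ENSMUST00000020372 rose, with 30.5, 33.4 and 32.7 FPKM in the Ctrl and 55.8, 58.7 and 58.8 FPKM in the Gsk3sKO libraries (log2 fold change 0.82 ± 0.12, adjusted p = 0.194). The transcript ENSMUST00000141683, annotated as processed and not protein-coding, fell, with 38.4, 20.9 and 12.2 FPKM in the Ctrl and 17.6, 0.0358 and 0.581 FPKM in the Gsk3sKO libraries (log2 fold change -2.85 ± 1.11, adjusted p = 0.842). The Uqcr11 gene total did not pass the test, at 82.4, 54.3 and 44.98 FPKM in the Ctrl and 73.3, 62.7 and 59.4 FPKM in the Gsk3sKO libraries (log2 fold change 0.14 ± 0.22). In Uqcr10 a processed transcript fell too, ENSMUST00000151559, at 36.7, 4.91 and 3.18 FPKM in the Ctrl and 2.19, 0 and 0 FPKM in the Gsk3sKO libraries. The protein-coding ENSMUST00000058407 was also lower on average in Gsk3sKO, at 45.9, 52.8 and 28.5 FPKM in the Ctrl and 35.2, 26.7 and 31.98 FPKM in the Gsk3sKO libraries, where the groups overlapped.

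The fall of Atp5g1 was carried by its main protein-coding transcript ENSMUST00000107684, at 17.01, 16.4 and 22.8 FPKM in the Ctrl and 6.33, 3.29 and 5.22 FPKM in the Gsk3sKO libraries (log2 fold change -1.75 ± 0.28, adjusted p = 0.221). The transcript ENSMUST00000090541 was at 6.47, 4.73 and 1.47 FPKM in the Ctrl and 4.17, 5.89 and 2.34 FPKM in the Gsk3sKO libraries. Cox7a2 has 1 listed transcript, ENSMUST00000034881, so its transcript and gene values were the same. Ndufa4 fell through ENSMUST00000204978 (log2 fold change -0.75) and Ndufb5 rose through ENSMUST00000127477 (log2 fold change 0.71), the transcript with 86.8% of its level. The remaining called transcripts were minor ones, with gene totals that did not pass the test: ENSMUST00000145530 of Atp5c1 (-1.50), ENSMUST00000114191 of Atp5j (-0.98), a retained intron of Atp5k (ENSMUST00000123184, -0.88) and a retained intron of Ndufs1 (ENSMUST00000185827, 1.56).

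Genes that build or feed the complexes were counted beside the subunits, in lists chosen with earlier results of these data known. Of 45 tested assembly factors and metallochaperones, 2 fell and 2 rose, beside 5.2% and 1.36% of all gene totals, with a median log2 fold change of -0.11 (0.21 with TPM scaling). The fallers were Sdhaf4 and Uqcc3, assembly factors of complexes II and III. Neither was called with median ratio or TPM scaling, with the length correction, without Ctrl replicate 1 or in the ordinary linear model. In those settings 2 to 4 genes of the list rose, beside 1.07 to 6.71% of all gene totals. Sco2, a copper chaperone of complex IV, rose without overlap, at 5.68, 2.73 and 1.58 FPKM in the Ctrl and 10.6, 10.1 and 6.78 FPKM in the Gsk3sKO libraries (log2 fold change 1.32 ± 0.36, adjusted p = 0.607). Tmem126b, an assembly factor of complex I, rose, at 17.4, 15.8 and 20.2 FPKM in the Ctrl and 22.0, 27.8 and 25.6 FPKM in the Gsk3sKO libraries, also without overlap (log2 fold change 0.48 ± 0.16, adjusted p = 0.688). Of 11 tested electron transfer proteins and subunits with other symbols, such as Cycs and Cyc1, none passed the test (median -0.0045, and 0.30 with TPM scaling).

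Among 16 tested genes of the tricarboxylic acid cycle and pyruvate dehydrogenase, Idh3g, the gamma subunit of NAD-dependent isocitrate dehydrogenase, rose, at 27.8, 29.5 and 39.4 FPKM in the Ctrl and 38.3, 42.7 and 55.6 FPKM in the Gsk3sKO libraries (log2 fold change 0.48 ± 0.19, adjusted p = 0.745), and none fell. Among all gene totals 1.36% rose and 5.2% fell. A list of carriers and channels of adenine nucleotides and phosphate, with the creatine kinases Ckb and Ckmt1, had 8 tested genes. Of these Slc25a5, an ADP/ATP carrier of the inner membrane, fell, at 85.7, 101 and 102 FPKM in the Ctrl and 82.3, 65.6 and 64.3 FPKM in the Gsk3sKO libraries, without overlap (log2 fold change -0.45 ± 0.15, adjusted p = 0.688), a call that was lost with TPM scaling. Slc25a4, another ADP/ATP carrier, was at 289, 263 and 261 FPKM in the Ctrl and 255, 242 and 257 FPKM in the Gsk3sKO libraries. It did not pass the test (log2 fold change -0.11). None of the 15 tested regulators of mitochondrial biogenesis passed, among them the coactivator gene Ppargc1a at 8.04, 10.7 and 11.6 FPKM in the Ctrl and 11.9, 12.1 and 10.5 FPKM in the Gsk3sKO libraries.

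Mitochondrial ribosomal proteins, which are also encoded in the nucleus and imported, had a median log2 fold change of -0.20 over 77 tested genes, beside -0.18 for the subunits (0.14 with TPM scaling). Of these 10 fell and 1 rose, beside 5.2% and 1.36% of all gene totals. The fallers and risers numbered 5 and 1 with median ratio scaling, 1 and 5 with TPM scaling, 2 and 1 with the length correction, 4 and 1 without Ctrl replicate 1, and 1 and 0 in the ordinary linear model. Cytosolic ribosomal proteins, whose transcripts are about as short as those of the subunits (median 787 bases), had a median of -0.11 over 88 tested genes (0.25 with TPM scaling), and 8 fell and 1 rose. In the same 5 settings the numbers were 4 and 1, 3 and 12, 4 and 6, 3 and 3, and 2 and 1. Among all gene totals the shares in these settings were 4.1 and 2.14%, 1.83 and 6.71%, 3.04 and 3.11%, 4.19 and 1.07%, and 3.86 and 1.54%. In both lists, as in the subunits, the highest summed FPKM was that of Ctrl replicate 1.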

How the data were processed

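RNA bound to tagged ribosomes was measured in 3 Ctrl and 3 Gsk3sKO libraries, assigned to groups by their labels. The authors deposited FPKM values per transcript and library. The submitters' processing notes list HISAT2 2.1.0, SAMtools 1.9, StringTie 1.3.4d and GRCm38, with settings not given in the sources used here. The fold (a ratio), the p-value and the q-value that the authors deposited beside them hold their own comparison and were not used. The Supplementary Data of the paper were not used here, and 0 columns belonged to other samples.

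FPKM was summed by gene identifier. Gene totals and transcripts with a mean of at least 1 FPKM over the 6 libraries were tested on log2(FPKM + 1), with a pseudocount of 1, by limma 3.58.1 in R 4.3.3 (lmFit, then eBayes with a trend), fitted on the whole table without covariates. Tests were 2-sided with Benjamini-Hochberg adjustment over all features tested, and a feature was called at an unadjusted p under 0.05. The model was tested on simulated data. FPKM holds no counts, so no counting interval is given, and depth was read approximately from how low values were spaced, in transcripts over 800 bases. Between 30.1 and 61.9% of these values lay within 0.1 reads of a whole number, so the reads could not be recovered. At a given FPKM a short transcript, such as most of those described here, rests on fewer reads than a long one.

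Positions and lengths come from GENCODE M21, in which 114237 of the 115220 transcripts were found and 983 were not, with 341 of the 343 subunit transcripts among the matches. Promoter windows come from RefSeq (GRCm38.p6). Tables used pandas 2.3.3, numpy 2.4.6 and scipy 1.17.1 and plots matplotlib 3.10.9, in Python 3.11.15.

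The members and all lists were chosen with earlier results of these data known. Values were given for the 2 subunits of each complex with the highest mean FPKM, the highest and lowest fold change of each complex, all called gene totals, the 12 called transcripts with the largest change (11 were called) and genes that come as isoforms. Other genes were named after their values were seen. Values of 1 subunit, which enters the counts, are not reported here. Alternatives were pseudocounts of 0.1 and 0.5, no filter and a mean of at least 5 FPKM, median ratio and TPM scaling, an ordinary linear model, a replicate block, each library left out, a lowess correction for transcript length (span 0.3), the most abundant transcript of each gene, current complex assignments, and, chosen after seeing the data, protein-coding transcripts alone.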

Additional observations from a re-analysis of the deposited data

How the results depend on the processing

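Of the 14 falls and 2 rises among subunit gene totals, every direction was kept in all 17 alternative settings, and counts of calls moved. The fold change itself is the same by construction with no filter, a mean of at least 5 FPKM, the ordinary linear model and the replicate block. Those settings could not change a direction. Nor could the transcript choices for genes with 1 listed transcript, such as Cox7a2. The falls numbered 8 with no filter, 7 with median ratio scaling, 2 with TPM scaling, 4 in the ordinary linear model, 6 with the length correction, 4 with the most abundant transcript of each gene and 4 to 23 with 1 library left out, and the rises numbered 8 with TPM scaling, 1 at a mean of at least 5 FPKM and 1 to 4 with 1 library left out. The called gene totals of both directions came to 10, 9, 10, 6, 9 and 6 in the first 6 settings named for the falls and 6 to 24 without 1 library, against 16 as reported. Protein-coding transcripts alone, chosen after seeing the data, gave 12 falls and 3 rises, beside 4.09% and 1.54% of all gene totals. Where a call was lost, the cause was not tested.

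The labels do not say whether the replicate numbers pair the libraries. Deviations of libraries with the same number correlated at -0.03, -0.01 and -0.08. With 3 libraries a group this cannot decide whether they were paired. The fit with a replicate block gave 18 falls and 1 rise among the gene totals of the 77 subunits. All 12874 gene totals held 664 falls and 157 rises in that fit. The same fit gave 17 called transcripts with 5 of them higher, against 11 and 3. Called transcripts numbered 8 to 27 with 1 library left out, 5 to 23 of them lower and 2 to 6 higher. With TPM scaling 4 were lower and 9 higher, and in the ordinary linear model 5 were lower. Apart from the ordinary linear model, with 5.1% of all transcripts called, shares over all transcripts in these settings are not given here. These transcript counts therefore stand without a comparison.

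With TPM scaling all gene totals had a median of 0.27, against -0.062 as deposited. This scaling turned the log2 ratios of summed FPKM to 0.13 for complex I, 0.41 for complex II, 0.31 for complex III, 0.022 for complex IV and 0.24 for complex V. For complex II the median of the subunits was -0.058, against 0.06 for the sum. Current complex assignments put Ndufa4 in complex IV and leave out Ndufa4l2, Cox7a2l, Atp5s and Atp5sl. With them the log2 ratios of summed FPKM were -0.25, 0.06, -0.06, -0.38 and -0.12 for complexes I to V, against -0.26, 0.06, -0.06, -0.36 and -0.12 as reported. With 1 library left out the ratios lay between -0.39 and -0.06, 0.03 and 0.11, -0.16 and 0.07, -0.49 and -0.17, and -0.17 and -0.04 for complexes I to V.

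The Gsk3b gene total, at -0.40, came to an unadjusted limma p under 0.05 without Ctrl replicate 1 (-0.61), with the length correction (-0.40) and with the most abundant transcript (-0.61), and lay between -0.61 and -0.28 with 1 library left out. Sdhc turned positive with TPM scaling (0.21), without Ctrl replicate 3 (0.05), without Gsk3sKO replicate 2 (0.13) and with the most abundant transcript (0.12), and lay between -0.26 and 0.13 with 1 library left out. With 3 libraries a group and no counts, differences of the size of the median subunit, -0.18, are close to the standard errors of single genes, and a p above the threshold does not show that a subunit was level.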

Other observations

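The 13 subunits encoded in the mitochondrial genome had a median log2 fold change of 0.59 as deposited and 0.96 with TPM scaling, beside -0.18 and 0.18 for the nuclear-encoded ones. Their summed level was 3122, 3428 and 2086 FPKM in Ctrl and 3220, 4324 and 5974 FPKM in Gsk3sKO, and the groups overlapped because Gsk3sKO replicate 1 lay below Ctrl replicate 2. At an unadjusted limma p under 0.05, mt-Atp6 (log2 fold change 0.80), mt-Nd5 (0.76) and mt-Cytb (0.95) rose and none fell, beside 1.36% higher among all gene totals. All 3 risers were highest in Gsk3sKO replicate 2 or 3, and none had an adjusted limma p under 0.05, the lowest being 0.671 for mt-Atp6. In an ordinary linear model 0 of the 13 passed at an unadjusted p under 0.05, beside 1.54% of all gene totals that rose. With TPM scaling 12 rose in limma, beside 6.71%, with the length correction 8 did, beside 3.11%, and without Ctrl replicate 1 there were 5, beside 1.07%. These RNAs are translated on mitochondrial ribosomes, which do not contain Rpl22, and the share of unbound RNA in the pull-down was not measured. The level of mt-Nd4l was 0.0993, 93.7 and 54.1 FPKM in Ctrl and 0.0692, 85.3 and 0.104 FPKM in Gsk3sKO, so it was near 0 in 3 libraries of both groups although the overlapping mt-Nd4 was between 98.9 and 357 FPKM in each library.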
